A study of Mus musculus with 6 samples.

Results

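Class 3 semaphorins are the secreted guidance factors of the semaphorin family, and 6 of their genes were measured among the 11281 genes of the table. They were found as genes whose symbol is Sema3 followed by a letter, read by array features (probe sets) annotated to exactly 1 symbol. This gave Sema3a, Sema3b, Sema3c, Sema3d, Sema3e and Sema3f, with 105 of the 109751 probe sets that carry 1 symbol. Sema3g was not analysed here. The family was chosen by the log2 values of K14ΔNLef1 against wild type, in which Sema3c and Sema3d were far lower, so these values are a description without a test.

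The samples were keratinocytes, the epithelial cells of the epidermis, from back skin of female mice aged 9.5 weeks on a C57BL6/CBA background. The 3 wild type samples carry no transgene in the labels. The 3 K14ΔNLef1 samples come from mice with a Lef1 transgene under the keratin 14 promoter, which is active in basal cells of epidermis and its appendages. The encoded Lef1, a transcription factor of the Wnt pathway, lacks the N-terminal part that binds beta-catenin. Cells were not divided into subsets of keratinocytes, although the protocol names cell sorting before RNA extraction. The labels name biological replicates, without stating how many animals made up a sample. Each sample was read on 1 exon array, so precision is limited by the small number of arrays. Which founder line carried the transgene is not stated in these sources.

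Secreted class 3 semaphorins bind neuropilins, which lack a signalling domain of their own and pass the signal through plexins. The plexins act on small GTPases and the actin cytoskeleton, so that growth cones and migrating cells turn away or collapse. Sema3a is the classic repellent of sensory axons, and Sema3e binds plexin D1 without a neuropilin. Semaphorins also steer endothelial cells, and neuropilins are shared with vascular endothelial growth factors. Keratinocytes are known as a source of semaphorins that act on nerve endings and vessels in skin.

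Each gene value is an average over the log2 intensities of the gene's probe sets, and a difference below is the K14ΔNLef1 mean minus the wild type mean of these log2 values. Sema3c and Sema3d were the members with the large difference, and their regulatory sequence is shown here because both are lower together. The stretches below are the 250 bases before the start of each gene in RefSeq (GRCm38.p6, plus strand), at chr5:17574566-17574815 for Sema3c and chr5:12382916-12383165 for Sema3d. Capitals mark a match to the Lef1 and Tcf recognition sequence. The forms searched on both strands share a core, and were CTTTGAA as the first form, together with the variant CTTTGAT as the second form, the variant CTTTGTA as the third form and finally the variant CTTTGTT as the fourth form.
Sema3c: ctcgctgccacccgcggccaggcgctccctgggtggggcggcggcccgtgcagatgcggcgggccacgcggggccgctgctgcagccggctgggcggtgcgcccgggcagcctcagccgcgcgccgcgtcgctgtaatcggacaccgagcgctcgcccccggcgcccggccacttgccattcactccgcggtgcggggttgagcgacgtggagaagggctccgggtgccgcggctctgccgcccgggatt
Sema3d: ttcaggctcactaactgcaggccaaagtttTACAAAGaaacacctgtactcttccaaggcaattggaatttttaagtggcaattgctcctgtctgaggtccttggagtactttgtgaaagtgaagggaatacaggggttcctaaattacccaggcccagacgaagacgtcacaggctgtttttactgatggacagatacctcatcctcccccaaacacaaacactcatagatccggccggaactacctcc

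The 2 stretches differ in composition, with 78.4% G and C in Sema3c and 46.8% in Sema3d. RefSeq windows of 300 bases, with 250 before and 50 after the start, were given for 4 of the 6 genes, and 3 of these held a match. Each is shown in a site of 30 bases on the plus strand, at chr5:17574809-17574838 for Sema3c, chr5:12382935-12382964 for Sema3d and chr5:14025146-14025175 for Sema3e.
Sema3c: cgggattctgcTACAAAGaaactcagcacc
Sema3d: ggccaaagtttTACAAAGaaacacctgtac
Sema3e: tgaatgagcatTTCAAAGtccttcccgagg

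The Sema3c match begins 5 bases into the transcribed part, the Sema3d match at position -220 and the Sema3e match at position -119. No match was found in the Sema3a window. At least 1 match was present in 16.9% of all 32851 windows of the same length and in 13.1% of the windows of measured genes. The forms were chosen after the promoter sequences were seen, so these shares do not test the count among the members. A match describes the letters only, and it occurred in a gene without a large difference (Sema3e) as well as in those that were lower.

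Sema3d encodes a factor that patterns endothelial cells and neural crest derivatives. Its gene value was 9.43, 9.33 and 9.22 in wild type replicates 1, 2 and 3 and 5.55, 6.16 and 5.67 in K14ΔNLef1 replicates 1, 2 and 3. Every transgenic value lay below every wild type value, with a gap of 3.06 between the nearest arrays. The wild type mean was 9.33 ± 0.10 and the K14ΔNLef1 mean 5.79 ± 0.32 (SD, n = 3), a difference of -3.53, or 11.6-fold lower. Set against the wild type mean on the linear scale, the transgenic arrays kept 7.30%, 11.1% and 7.90% of the Sema3d intensity. Only 3 of the 11281 genes had a more negative difference.

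Sema3c, which guides cardiac neural crest cells and endothelial cells, was also lower. Its gene value was 10.43, 10.16 and 10.40 in wild type replicates 1, 2 and 3 and 7.69, 8.58 and 8.32 in K14ΔNLef1 replicates 1, 2 and 3. The genotypes did not overlap, with a gap of 1.58 between the nearest arrays. The wild type mean was 10.33 ± 0.15 and the K14ΔNLef1 mean 8.20 ± 0.46 (SD, n = 3), a difference of -2.13, or 4.38-fold lower. On the linear scale the transgenic arrays kept 16.1%, 29.8% and 24.8% of the wild type intensity, and Sema3c ranked 29th of the 11281 genes from the most negative difference. In RNA from a mixed cell population, fewer expressing cells and less RNA per cell cannot be told apart.

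**Figure D1:**
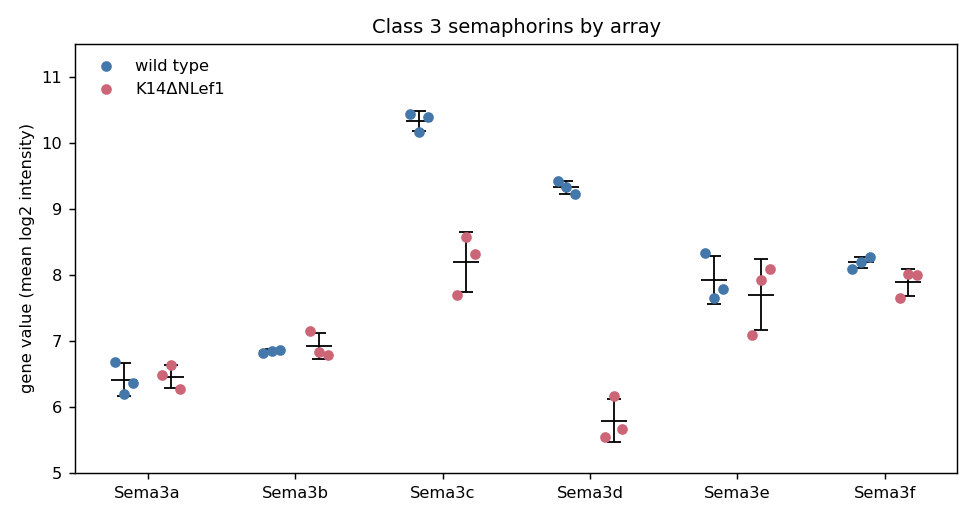
Gene value (log2 intensity averaged over probe sets) of the 6 class 3 semaphorins on each array, with points for single arrays, horizontal marks for the genotype mean and bars for the SD (n = 3). Sema3d (9.22 to 9.43 against 5.55 to 6.16) and Sema3c (10.16 to 10.43 against 7.69 to 8.58) stand apart, while the genotypes of Sema3a, Sema3b and Sema3e overlap.

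The other 4 members had small differences. Sema3a read 6.69, 6.20 and 6.36 in wild type and 6.49, 6.63 and 6.27 in K14ΔNLef1, so the genotypes overlapped, with a difference of 0.05. Sema3b, a factor known for growth inhibition in tumours, read 6.81, 6.85 and 6.87 in wild type and 7.15, 6.84 and 6.78 in K14ΔNLef1, with a difference of 0.08. Its transgenic values lay on both sides of the wild type values, and replicate 1 alone was clearly higher.

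Sema3e read 8.34, 7.64 and 7.78 in wild type and 7.09, 7.92 and 8.10 in K14ΔNLef1. K14ΔNLef1 replicate 1 was low and the other transgenic arrays lay within the wild type range, so the difference of -0.22 turned to 0.09 without that array. Sema3f, which binds neuropilin 2, read 8.10, 8.20 and 8.27 in wild type and 7.64, 8.01 and 8.00 in K14ΔNLef1. Its genotypes did not overlap, though the gap was only 0.09, and the difference was -0.30. Of all genes, 11.8% were lower and 6.91% higher in K14ΔNLef1 without overlap, so the order of the Sema3f values is a common one in this table. The differences of Sema3a and Sema3b kept no sign: they ranged from -0.07 to 0.18 and from -0.04 to 0.19 over the alternatives tried.

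The low values of Sema3c and Sema3d were shared by every probe set annotated to either gene alone. All 22 Sema3c probe sets and all 20 Sema3d probe sets were lower on each transgenic array than on each wild type array, where 9.46% of all probe sets were. The difference per probe set ran from -3.87 to -1.63 for Sema3c, with a median of -2.00. Of these, 11 were lower by 1 to 2, 10 by 2 to 3 and 1, probe set 4755493, by more. That probe set went from a mean of 8.13 in wild type to 4.26, and was among the dimmest of the gene.

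Sema3d probe sets spread more widely, from -5.05 to -1.04 with a median of -3.24. There were 7 that were lower by over 4, 8 by 3 to 4, 4 by 2 to 3 and 1 by less. The last, probe set 5073152, was the dimmest Sema3d probe set in wild type, at a mean of 4.13, and read 3.09 in K14ΔNLef1. At the other end, probe set 5365506 went from 9.08 to 4.03. Where the probe sets lie in the transcripts was not analysed here, nor was detection above background, so a dim K14ΔNLef1 value is not a measured absence.

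**Figure D2:**
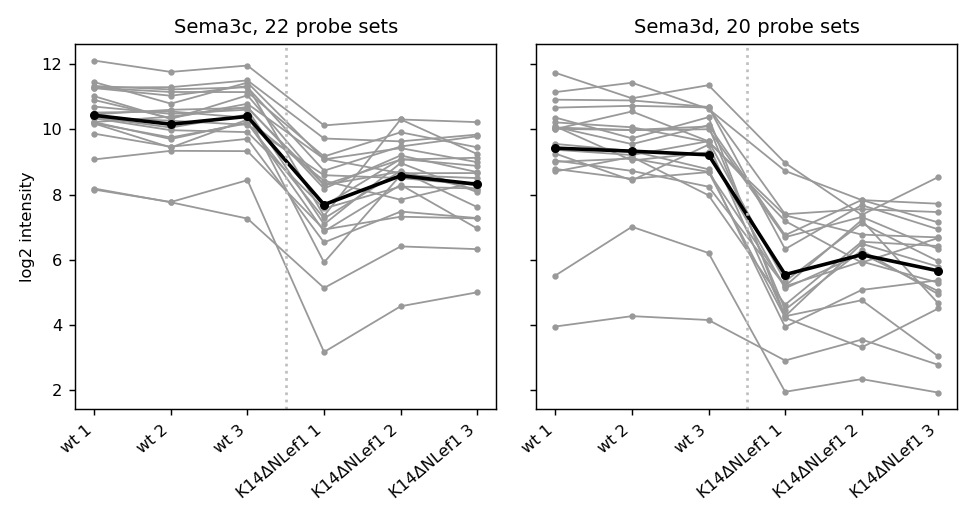
Log2 intensity of every probe set of Sema3c and Sema3d (grey lines) and the gene value (black line) on the 3 wild type (wt) and 3 K14ΔNLef1 arrays. All 22 and all 20 grey lines drop between the genotypes, and the spread among transgenic arrays is wider than among wild type arrays.

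Among the transgenic arrays of the deposited values the 2 genes took the same order. K14ΔNLef1 replicate 2 was the highest of the 3 arrays for 15 of the 22 Sema3c probe sets and 14 of the 20 Sema3d probe sets. Replicate 1 was the lowest for 16 of the 22 and 9 of the 20, with replicate 3 lowest for 8 of the Sema3d probe sets. With all arrays shifted to the same median this order was not shared: the transgenic arrays read 7.98, 8.57 and 8.21 for Sema3c, lowest on replicate 1, and 5.84, 6.15 and 5.56 for Sema3d, lowest on replicate 3. Replicate 2 was the highest for both genes on either scale. The SD over arrays averaged 0.22 per Sema3c probe set in wild type and 0.56 in K14ΔNLef1, and 0.32 and 0.68 for Sema3d.

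Few probe sets of the other members separated the genotypes on all arrays. None of the 10 Sema3a and none of the 15 Sema3b probe sets separated the genotypes. For Sema3e 1 of 19 did and for Sema3f 3 of 19, all lower, where 9.46% of all probe sets were. The probe set differences ran from -0.28 to 0.44 for Sema3a, from -0.46 to 0.61 for Sema3b, from -1.56 to 0.57 for Sema3e and from -1.35 to 0.40 for Sema3f. On K14ΔNLef1 replicate 1 alone, 11 of 19 Sema3e probe sets lay below every wild type array, against 2 on replicate 2 and 1 on replicate 3. For Sema3f the counts were 14, 7 and 10 of 19 on K14ΔNLef1 replicates 1, 2 and 3. The same share over all probe sets was not analysed by array, and K14ΔNLef1 replicate 1 had the lowest median intensity of the arrays.

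**Figure D3:**
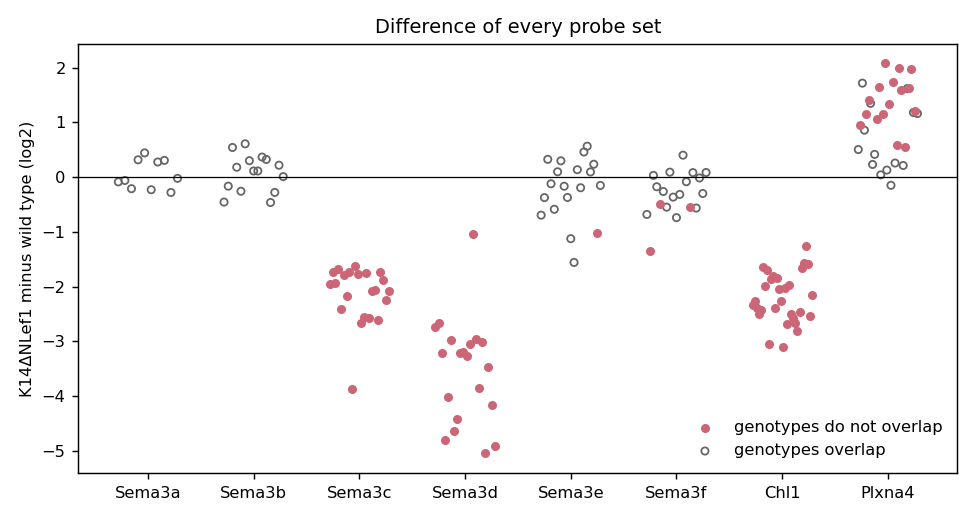
Difference of each probe set (K14ΔNLef1 minus wild type, log2) for the 6 class 3 semaphorins, Chl1 and Plxna4; filled points are probe sets whose genotypes do not overlap. All Sema3c, Sema3d and Chl1 points are filled and lie below -1, while those of Sema3a and Sema3b are open and lie around 0.

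Some facts of the whole series touch these values. Lef1 read 5.81 to 7.02 in wild type and 11.11 to 11.24 in K14ΔNLef1, in accord with the labels. K14ΔNLef1 replicate 1 had a median intensity of 154.2, against 190.0 to 203.2 on the other 5 arrays. With all arrays shifted to the same median the differences were -3.43 for Sema3d and -2.02 for Sema3c. Without replicate 1 they were -3.41 and -1.88. Over all genes, 37 rose and 94 fell (limma, adjusted p at or under 0.05), and with 1 array left out 8 to 115 rose and 18 to 124 fell.

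Marker lists of keratinocytes and of other cell types were averaged on each array. Detection above background was not analysed, so a list mean does not show that a cell type was present. The 11 measured keratinocyte markers of 12 averaged 11.38 to 11.50 in wild type and 10.83 to 11.35 in K14ΔNLef1, with a median difference of -0.32. Of the 11, 5 were lower without overlap, against 11.8% of all genes, and none passed the limma test, with 1 at an unadjusted p under 0.05. That p was reached by 1330 of the 11281 genes, or 11.8%. The 7 T cell markers of 9 averaged 7.97 to 8.88 and 8.10 to 10.05, and the 6 Langerhans cell markers of 7 averaged 7.06 to 7.91 and 7.38 to 8.94, highest on K14ΔNLef1 replicate 2. Their median differences were 0.81, with 7 of 7 positive and 0 without overlap, and 0.77, with 5 of 6 positive and 1 higher without overlap. The array on which Sema3c and Sema3d were least low was thus also the one with the most T cell and Langerhans cell marker signal. This is the place of 1 array, and a link between these values was not tested.

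The other 5 lists had median differences nearer to 0 than these 2. Fibroblast markers averaged 6.50 to 6.66 in wild type and 6.60 to 6.72 in K14ΔNLef1 (9 of 10 measured). Endothelial and mural markers averaged 5.89 to 6.07 and 5.99 to 6.43 (10 of 10), and melanocyte markers 6.33 to 6.62 and 6.48 to 6.96 (7 of 8). Their median differences were 0.13, 0.14 and 0.33, and 2, 3 and 3 of their markers were higher without overlap, against 6.91% of all genes. Of the fibroblast markers 1 was lower without overlap. Thy1 is in both the fibroblast and the T cell list, and Sox10 in both the melanocyte and the Schwann list. Schwann and nerve markers (4 of 7) averaged 6.85 to 6.89 and 6.74 to 7.07, and Merkel cell markers (4 of 6) 6.38 to 6.73 and 6.46 to 6.83, with median differences of 0.04 and 0.02 and no marker without overlap. No marker of these 5 lists, nor of the T cell and Langerhans lists, passed the limma test, with 1, 2, 3, 0, 0, 1 and 1 at an unadjusted p under 0.05 in the order named. Of all the marker lists, only that of keratinocytes had a negative median difference (-0.32, with 1 of 11 markers positive). The part of cell composition in the Sema3c and Sema3d differences was not tested.

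Among the receptors, 2 genes passed the limma test, in opposite directions. This list and the other gene lists were drawn up with earlier results of these data known. Their counts beside all genes are therefore a description and no independent test. Of 14 listed receptors and co-receptors of the semaphorin family, 9 were measured, and Chl1 fell, Plxna4 rose and 7 did not pass. Over all genes, 0.833% fell and 0.328% rose. The median difference of the 9 was 0.09, and that of all genes was -0.05. The neuropilin Nrp1, the shared ligand-binding subunit, read 5.83, 5.47 and 5.79 in wild type and 5.95, 5.67 and 5.74 in K14ΔNLef1. These values overlap, with a difference of 0.09 (SE 0.19). Neuropilin 2 was not analysed here.

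Chl1, an L1-family adhesion molecule that joins neuropilin 1 in semaphorin receptor complexes, read 10.55, 10.40 and 10.61 in wild type and 7.50, 8.76 and 8.70 in K14ΔNLef1. All transgenic arrays were below all wild type arrays, and replicate 1 was the lowest. The mean went from 10.52 ± 0.11 to 8.32 ± 0.71 (SD, n = 3), and Chl1 fell by 2.20 (SE 0.33, limma adjusted p of 0.0232). All 30 of its probe sets were lower without overlap, with differences from -3.11 to -1.25. Without wild type replicate 1, 2 or 3 the adjusted p was 0.100, 0.0998 and 0.122, while the difference stayed at -2.16 or below in those fits.

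Plxna4, a plexin that signals for Sema3a with neuropilin 1, read 6.02, 6.31 and 6.12 in wild type and 7.07, 7.15 and 7.40 in K14ΔNLef1. Every transgenic array was higher than every wild type array. The mean went from 6.15 ± 0.15 to 7.21 ± 0.17 (SD, n = 3), and Plxna4 rose by 1.05 (SE 0.18, limma adjusted p of 0.0379). Of its 30 probe sets, 29 had a positive difference and 16 were higher without overlap, where 5.11% of all probe sets were. With 1 array left out it passed in 1 of 6 fits, the one that omitted K14ΔNLef1 replicate 1. When wild type replicate 1, 2 or 3 or K14ΔNLef1 replicate 2 or 3 was omitted, its limma adjusted p was 0.199, 0.126, 0.198, 0.106 and 0.100. It also missed the threshold with the median of its probe sets (0.0773) or the brighter ones only (0.0911), and with a block by replicate number (0.120) or adjacent animal number (0.0819).

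The remaining receptors did not pass the limma test. The genotypes did not overlap in Plxna1 and Plxnd1, which were higher, and in Plxna2 and L1cam, which were lower. They overlapped in Plxna3 and Plxnc1. Of all genes, 11.8% were lower and 6.91% higher without overlap. Plxnd1, the receptor of Sema3e, differed by 0.16 (SE 0.17), Plxna1 by 0.21 (SE 0.17), Plxna3 by -0.19 (SE 0.18) and the adhesion molecule L1cam by -0.28 (SE 0.18). Plxna2 differed by -0.42 (SE 0.23), with its lowest value, 6.98, on K14ΔNLef1 replicate 1. Plxnc1 differed by 0.27 (SE 0.32), with its highest value, 6.60, on K14ΔNLef1 replicate 2.

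None of 11 measured semaphorins of other classes passed the limma test, and 2 had an unadjusted p under 0.05, against 11.8% of all genes. These were transmembrane semaphorins. Sema6a averaged 6.67 ± 0.04 in wild type against 7.34 ± 0.15 in K14ΔNLef1 (SD, n = 3), with a difference of 0.67 (adjusted p of 0.138). Sema5a was 8.35 ± 0.27 and 7.59 ± 0.21, with a difference of -0.76 (adjusted p of 0.181). The genotypes overlapped in neither gene. The 11 differences ran from -0.76 to 0.67 with a median of 0.03. Sema3c and Sema3d lie outside this range, but they were chosen for their low values.

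Downstream genes did not pass the limma test either. Of 20 measured signal transduction genes, 1 had an unadjusted p under 0.05, against 11.8% of all genes. This was the Src-family kinase gene Fyn, with a difference of 1.12 (adjusted p of 0.286) and overlapping genotypes. The next was Rnd3, a GTPase that loosens actin stress fibres, with -0.65 (adjusted p of 0.424). The list had a median difference of -0.01, with 9 positive and 11 negative.

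Proteases that cut semaphorins or shed neuropilins had 6 measured members, of which 0 passed the limma test and 3 had an unadjusted p under 0.05, against 11.8% of all genes. The metalloprotease gene Adam9 had a difference of -0.62 (adjusted p of 0.285) and the proprotein convertase gene Pcsk5 one of 0.52 (adjusted p of 0.316). Adamts1, which cleaves Sema3c protein, was the third, with 0.57. Furin, the convertase that processes class 3 semaphorins, differed by 0.08 (SE 0.22).

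Of the 8 vascular growth factors and receptors that share neuropilins, 1 passed the limma test, where 0.833% of all genes fell and 0.328% rose. Vegfd, a lymphatic growth factor, read 10.12, 10.30 and 10.45 in wild type and 7.06, 7.03 and 7.96 in K14ΔNLef1, without overlap. It fell by 2.94 (SE 0.27, limma adjusted p of 0.00284), and it passed in all 6 fits with 1 array left out. The other 7 had differences of -0.04 to 0.25. Among them, Vegfa, the ligand that competes for neuropilin 1, differed by 0.03, and its receptor gene Kdr by -0.04.

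**Figure D4:**
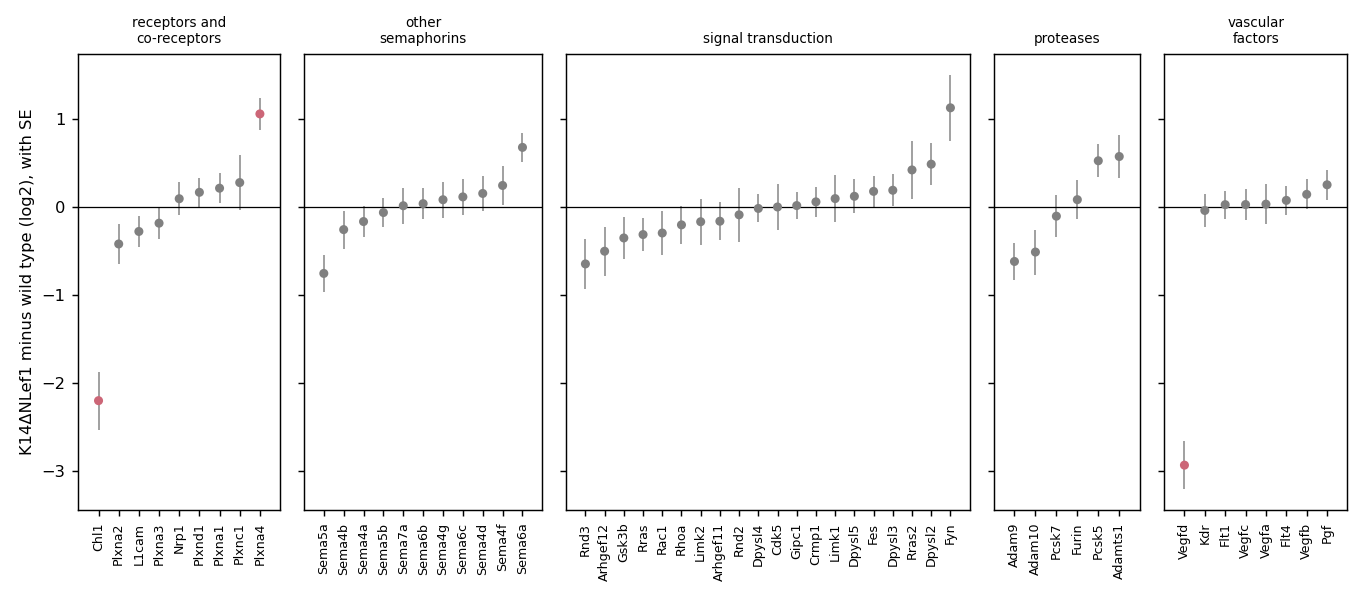
Difference (K14ΔNLef1 minus wild type, log2) of the measured genes of 5 lists around class 3 semaphorins, ordered within each list, with the SE from limma; coloured points passed an adjusted p of 0.05. Chl1 and Vegfd lie below -2, Plxna4 lies above 1, and the grey points passed no test.

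On chromosome 5 the 4 genes Sema3d, Sema3a, Sema3e and Sema3c follow each other in this order. Between Sema3d and Sema3c lie Sema3a and Sema3e and 3 other measured genes, Pclo, Cacna2d1 and Hgf, of which 0 passed the limma test and 0 had an unadjusted p under 0.05. Their median difference was 0.16. Sema3a next to Sema3d was thus near 0, at 0.05, while Sema3d was at -3.53.

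Direct neighbours outside the family did not pass either. Dmtf1, on the other side of Sema3d, differed by -0.49 (adjusted p of 0.624). Further out on that side, Crot differed by -0.69 (limma adjusted p of 0.415) and Abcb1b by -1.15 (limma adjusted p of 0.222), both without overlap. Abcb4 and Abcb1a, also on that side, differed by 0.067 and 0.085. Hgf, the ligand of the Met receptor, and Cd36, a fatty acid transporter gene, flank Sema3c among measured genes and differed by 0.16 and 0.27. On chromosome 9, where Sema3b and Sema3f lie close together, the nearest measured genes were Ifrd2 (-0.21) and Gnai2 (-0.15) for Sema3b and Gnat1 (0.18) and Rbm6 (-0.58) for Sema3f. Of the 26 genes within 5 measured genes of a member, members left out, 0 passed the limma test and 5 had an unadjusted p under 0.05, against 11.8% of all genes. Their median difference was -0.0042.

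**Figure D5:**
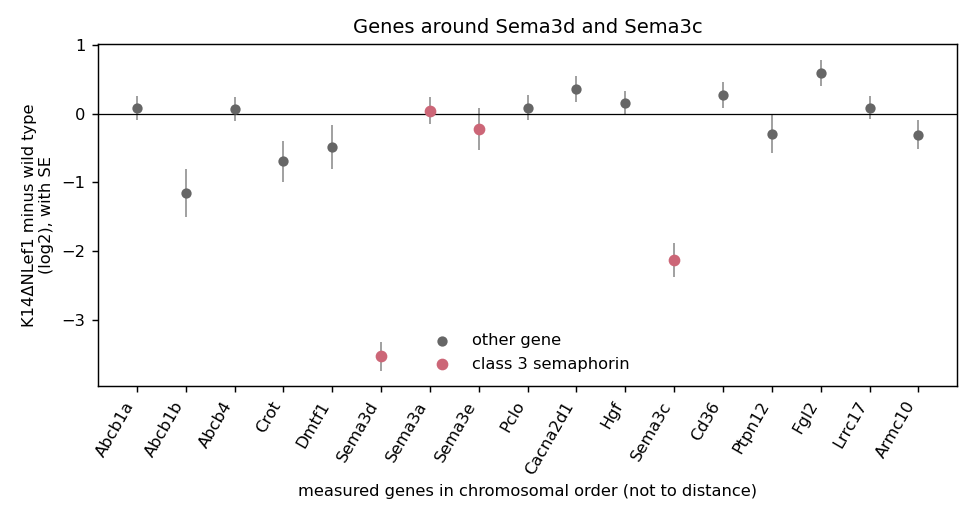
Difference (K14ΔNLef1 minus wild type, log2, with SE) of 17 measured genes in their order on chromosome 5, from 5 genes before Sema3d to 5 genes after Sema3c; the horizontal axis is order, not distance. Sema3d (-3.53) and Sema3c (-2.13) stand below their neighbours, and Sema3a (0.05) and Sema3e (-0.22) do not.

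The genes with the most similar pattern were found by the root mean square difference of gene-centred log2 values over the 6 arrays, where 0 is an identical pattern. For Sema3c these were Krt77, a suprabasal keratin, at 0.149, Sostdc1, which encodes a secreted BMP and Wnt antagonist, at 0.177, and Chl1 at 0.177. For Sema3d these were Serpinb2, an inhibitor of plasminogen activators, at 0.225, the decoy receptor gene Il1r2 at 0.246 and the cytokine receptor gene Il20ra at 0.247. Sema3c and Sema3d stood 0.724 apart, since the measure counts the size of the difference: Sema3c was the 17th nearest gene to Sema3d, and Sema3d the 401st nearest to Sema3c. Krt77 read 11.73, 11.79 and 11.67 in wild type and 9.28, 10.05 and 9.95 in K14ΔNLef1, lowest on replicate 1 and highest on replicate 2 as Sema3c was.

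The patterns nearest to the other members lay at smaller distances. The measure is not scaled to the spread of a gene, and genes that vary little lie near one another by it. These distances therefore do not mean a closer likeness than those of Sema3c and Sema3d. The nearest genes were Pou5f1, Tcl1 and Abi3 for Sema3a (0.055 to 0.065), Itga7, Slc1a2 and Rnf151 for Sema3b (0.018 to 0.022), Zfp397, Myl12a and Atp8b1 for Sema3e (0.058 to 0.088) and Tgfbr3, Foxj2 and Lgals8 for Sema3f (0.025 to 0.040). The genes nearest to Sema3e in pattern shared its low value on K14ΔNLef1 replicate 1, where Zfp397 read 7.62, Myl12a 7.20 and Atp8b1 6.78, their lowest values over the 6 arrays. That array had the lowest median intensity, and these genes were picked for their likeness to Sema3e on the same arrays.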

How the data were processed

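The deposited table holds linear intensity values for each probe set on each array. The submitters' processing notes name Affymetrix Power Tools, RMA and mm9, with versions and filters not given in the sources used here. Log2 was taken of the deposited intensities. Of 114330 probe sets, 109751 had 1 symbol in the platform annotation, 834 several and 3745 none; only the first were used, with 1226 older symbols updated through RefSeq synonyms (GRCm38.p6). A gene value is the mean over its probe sets. All 11281 genes were fitted with limma 3.58.1 in R 4.3.3 (lmFit, eBayes, two-sided, Benjamini-Hochberg over all genes, threshold 0.05), unpaired, with no filter; the fit was tested on simulated data. P-values set the genotype difference against the spread between samples of the same genotype, with the variance of each gene drawn toward that of all genes. The members and gene lists were chosen with earlier results of these data known, so no p is given for a member. The named genes are Lef1, the members, list genes that passed (otherwise the 2 with the smallest p), the 3 most similar genes and the nearest neighbours of each member; further list genes were named after their values were seen, and the motif forms were chosen after the promoter sequences were seen. RefSeq order was used for neighbours only. Alternatives were the median of probe sets, brighter probe sets or genes, arrays at 1 median, quantile normalization, trend and robust eBayes, array weights, 2 blocks and each array left out.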

Additional observations from a re-analysis of the deposited data

How the results depend on the processing

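The Sema3c and Sema3d differences kept their sign under every alternative tried for them. With 1 array left out they ran from -2.32 to -1.88 and from -3.72 to -3.41, and with the median of the probe sets Sema3d was at -3.83. The number of genes that rose or fell moved more. It was 103 and 133 with arrays at the same median, 89 and 112 after quantile normalization, 598 and 699 with array weights (K14ΔNLef1 replicate 1 had a weight of 0.150 and replicate 2 of 5.18), and 18 rose among the brighter genes. The share of passing genes that rose was 28.2% as deposited, 43.6% with the same median and 44.3% after quantile normalization, and the median of all differences was -0.054, 0.055 and 0.056. With 1 array left out, 8 to 115 genes rose and 18 to 124 fell. Of the receptors and co-receptors, 2 passed as deposited, 1 with the median of probe sets, 1 with brighter probe sets, 1 with each block and 1 with brighter genes only (4 tested), and 0 to 2 with 1 array left out; the gene lost in the 5 fits with 1 call was Plxna4, which was not among the brighter genes. With array weights 3 receptors and co-receptors, 2 other semaphorins, 2 signal transduction genes, 3 proteases and 3 neighbours passed. The causes were not tested, apart from the smaller number of genes or arrays where that was the alternative itself.

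The replicate block, which treats replicate numbers as pairs, left 49 genes that fell and 26 that rose, and a block by adjacent animal numbers in the sample descriptions 61 and 30. Deviations from the genotype means correlated by -0.163, -0.173 and 0.036 for same-numbered samples, and 1 of 6 samples matched best to its own number, so the numbers give no sign of pairing. Sema3c and Sema3d differ by -2.13 and -3.53 with the replicate block too, since the design is balanced.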
